A study of Mus musculus with 4 samples.

Results

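The genes described here are 9 members of the fibroblast growth factor (FGF) system. They are the ligand genes Fgf3, Fgf4, Fgf5, Fgf8 and Fgf17 (5 genes) and the receptor genes Fgfr1, Fgfr2, Fgfr3 and Fgfr4 (4 genes). They were chosen by name, with earlier results of these data known. Taking every probe set annotated to exactly 1 of these symbols gave 12 of the 10833 probe sets with a single gene symbol and 9 of 8251 genes. Ligands had 5 probe sets and receptors 7, since Fgfr2 had 3 and Fgfr3 had 2. Each of 4 mouse cell cultures gave total RNA for its own Affymetrix MG_U74Av2 array. The XEN (extraembryonic endoderm) group held 3 cultures of 2 lines. IM8A1-I and IM8A1-II were the IM8A1 line of the PO strain at passage 27. IM8A1-I grew on gelatin in 70% EMFI-CM, and IM8A1-II spent 4 days in RPMI 1640 and 20% FBS on tissue culture plastic. XEN1-3, of the ICR strain at passage 18, grew like IM8A1-I on gelatin in 70% EMFI-CM. The ES (embryonic stem) group was 1 culture of undifferentiated R1 cells on gelatin with LIF. No genetic change or drug treatment is named for any of the cultures. Values of the XEN cultures are given below in the order IM8A1-I, IM8A1-II, XEN1-3.

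FGF ligands are secreted proteins that bind receptor tyrosine kinases together with heparan sulfate and signal mainly through the RAS and MAP kinase cascade. In the mouse blastocyst, FGF4 made by the cells that become epiblast acts through FGFR1 and FGFR2 on neighbouring inner cell mass cells. This signal directs cells to the primitive endoderm, the lineage from which XEN lines come. ES cells make FGF4 themselves and use it to leave the pluripotent state, and Fgf4 transcription in them depends on an enhancer bound by the factors Pou5f1 (Oct4) and Sox2. Fgf3 is known from parietal endoderm, Fgf5 from the epiblast after implantation, and the closely related Fgf8 and Fgf17 from the gastrulating embryo.

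The genes lie on chromosomes 7 (Fgf3, Fgf4 and Fgfr2), 5 (Fgf5 and Fgfr3), 8 (Fgfr1), 13 (Fgfr4), 14 (Fgf17) and 19 (Fgf8). In the RefSeq gene table Fgf3 and Fgf4 are neighbours on the same strand with 0 annotated genes between them, yet their signals ran in opposite directions in 2 of the 3 XEN cultures, as described below. A RefSeq promoter sequence (GRCm38.p6) was matched for 6 of the 9 genes. The 250 bases before the annotated start are shown for this neighbouring pair and for Fgfr4, the receptor gene that was higher in XEN. Capitals mark letters that match GATAA, the core bound by GATA factors, on either strand. They also mark GGGCGG, known as the GC box.
Fgf3, chr7:144838362-144838611, + strand: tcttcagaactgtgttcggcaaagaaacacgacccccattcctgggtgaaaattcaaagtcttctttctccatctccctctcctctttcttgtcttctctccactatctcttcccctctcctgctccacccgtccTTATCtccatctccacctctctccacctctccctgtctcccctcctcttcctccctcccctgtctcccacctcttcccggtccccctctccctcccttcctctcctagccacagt
Fgf4, chr7:144861136-144861385, + strand: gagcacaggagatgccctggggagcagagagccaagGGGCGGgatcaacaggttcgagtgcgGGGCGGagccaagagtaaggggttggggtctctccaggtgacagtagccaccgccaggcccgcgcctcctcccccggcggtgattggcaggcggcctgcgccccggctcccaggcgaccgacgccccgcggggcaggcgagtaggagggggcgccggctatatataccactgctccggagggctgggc
Fgfr4, chr13:55152568-55152817, + strand: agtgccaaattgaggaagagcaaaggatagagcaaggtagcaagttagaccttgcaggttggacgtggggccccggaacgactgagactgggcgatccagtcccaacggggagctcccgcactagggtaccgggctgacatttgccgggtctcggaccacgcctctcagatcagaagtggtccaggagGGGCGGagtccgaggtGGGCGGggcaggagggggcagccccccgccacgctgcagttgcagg
The Fgf3 window held 1 GATAA match and 0 GC boxes, while the Fgf4 and Fgfr4 windows held 2 GC boxes each and 0 GATAA matches. In all 32851 RefSeq promoter windows of this length, 22.6% held GATAA and 32.7% held GGGCGG. The octamer ATGCAAAT (in 1.60% of windows), the SOX-type motif AACAAT (9.42%) and TATAAA (12.4%) were matched in none of these 3 windows. None of the printed matches overlap, and a match or its absence describes only these letters in this window. The array probes were not mapped to the genome.

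Signals are in arbitrary units. Values under a background limit of 27.3 units, the 40th percentile over all arrays, are treated as not distinguishable from background. Tests ran on log2(signal + 10.5 units), a scale that understates the change of dim genes. Marker genes ran as the labels name the cells: by the brightest probe set of each gene, 6 of 6 ES markers were under the limit in all 3 XEN arrays (summed signal 51.7 to 53.1 units, against 18994 in ES), and 8 of 8 XEN markers were called higher in XEN (15432 to 19994, against 293 in ES). Of markers for other cell types, 6 of 8 trophoblast, 4 of 9 fibroblast and 4 of 5 germ layer genes were under the limit in all XEN arrays. Their summed signals were 114 to 139 in XEN and 974 in ES for trophoblast, and 563 to 812 and 1045 for fibroblast. For germ layers they were 77.5 to 312 and 166, and 0 of all these genes were listed at 0. Single genes carried much of these sums. Tfap2c (trophoblast) had 767 units in ES, Tagln (fibroblast) 538 in ES and Nes (germ layer) 283 in IM8A1-II. Some fibroblast markers ran the other way, such as Col1a2 (352 to 403 in XEN, 206 in ES). Of those tested, 1 of 6 trophoblast and 1 of 7 fibroblast genes were called lower in XEN, and 0 higher. The part of these cell types in the FGF results was not tested. The XEN arrays came from another chip lot and scan day than the ES array, so batch and cell type cannot be told apart. Cell line and culture medium, as described above, also differed between the groups and cannot be told apart from cell type. The XEN lines were of the PO and ICR strains and no strain is given here for R1, so strain cannot be told apart either. The run record of XEN1-3 carries a message that fluid was not detected. Array medians lay between 48.8 and 52.2 units in XEN and at 46.7 in ES. In bulk RNA, fewer expressing cells and less RNA per cell cannot be told apart.

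XEN cells had lower signals than ES cells for the ligands Fgf4 and Fgf17 and for the receptor Fgfr1, and higher signals for the receptor Fgfr4 and for 1 of the 3 Fgfr2 probe sets. Fgf3 was above background in both XEN cultures in EMFI-CM, and at background in the XEN culture in RPMI 1640 and in ES. Fgf8 was dim in ES, Fgf5 was at background throughout, and the Fgfr3 value of ES lay within the range of the XEN cultures. Of the 12 probe sets, 9 reached the limit on at least 1 array and were tested with limma (XEN minus ES, Benjamini-Hochberg adjustment over 8582 probe sets). Among these, 2 ligand probe sets fell and 0 rose, and 1 receptor probe set fell and 2 rose. Most of these calls entered the test only through the group where the signal was high. Fgf17 and Fgfr1 reached the limit only in ES, and Fgfr4 and Fgfr2 93091_s_at only in XEN. Over all tested probe sets 5.05% were called lower and 5.58% higher in XEN. Because the members were chosen with earlier results of these data known, setting their counts beside these shares is no test. The single ES array adds nothing to the measured spread and is assumed to vary as the XEN arrays do. The p-values rest on the spread between the XEN cultures, which limma moderates with that of all tested probe sets. IM8A1-I and IM8A1-II are 1 line at the same passage, yet the fit counts them as separate cultures. The receptor rises were lost when the IM8A1 arrays were averaged to 1, as given below, while the falls were not. Beyond this, the labels do not say whether the cultures were independent. With 3 arrays against 1, an exact permutation of the arrays cannot go below p = 0.25.

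**Figure D1:**
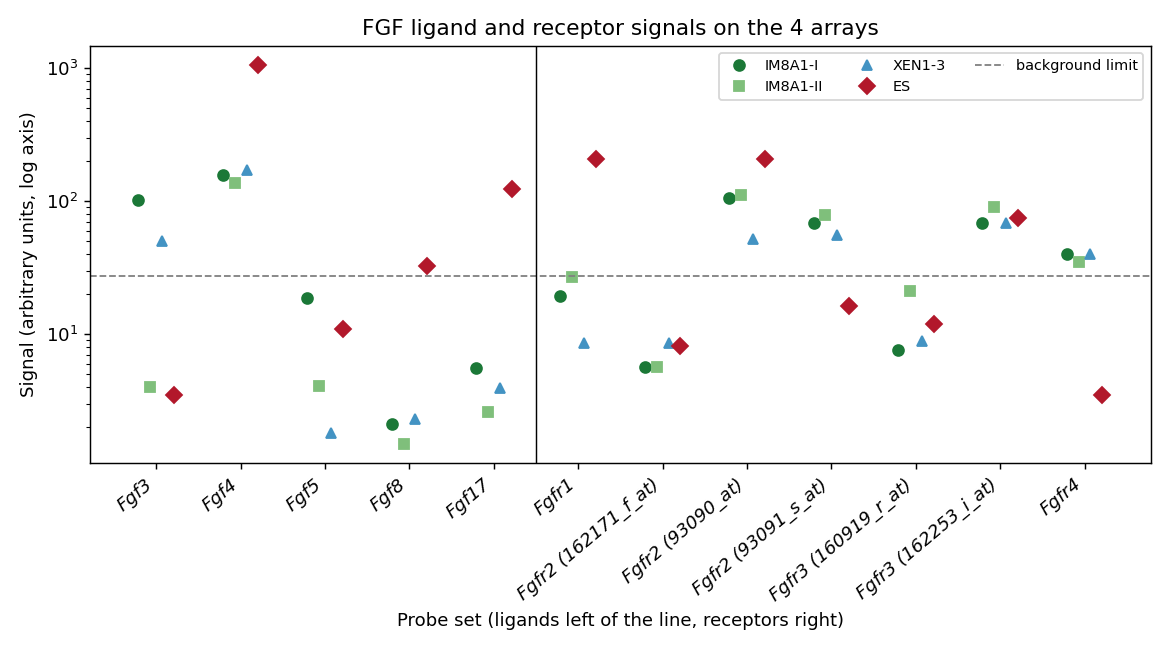
Signal (arbitrary units, log axis) of each of the 12 probe sets on the 4 arrays, with ligands left of the vertical line and receptors right of it; each point is 1 array and the dashed line is the background limit of 27.3 units. Fgf4 is the only ligand above the limit on all 4 arrays, and Fgfr4 lies just above it in XEN (34.7 to 40.1 units).

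Fgf4, the ligand that ES cells secrete, had 158, 137 and 172 units in the XEN cultures, against 1056 units in ES. All 3 XEN cultures lay well under ES and close to each other, but still above the background limit. Fgf4 averaged 156 ± 17.6 units in XEN (SD, n = 3) and its geometric mean was 6.81-fold lower than the ES value. The log2 difference was -2.69 ± 0.28 (SE, limma adjusted p = 0.00733), and it passed under each of 11 other ways of processing (adjusted p from 0.00292 to 0.0296). The Fgf4 signal exceeded 72.2%, 69.2% and 73.5% of the probe sets on the XEN arrays and 96.3% on the ES array. By the brightest probe set of each gene, both factors of the Fgf4 enhancer were lower in XEN. Any link between these factors and the Fgf4 signal was not tested. Pou5f1 had 2.60, 1.80 and 2.10 units in the XEN cultures and 3191 in ES (adjusted p = 0.00127), and Sox2 had 2.10, 3.10 and 8.20 units in the XEN cultures and 3391 in ES (adjusted p = 0.00175). A second, dim Pou5f1 probe set had 27.7, 21.1 and 10.4 units in the XEN cultures, the first just over the limit, and 23.0 in ES, and it was not called (adjusted p = 0.818).

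Fgf17, a ligand of the Fgf8 subfamily, had 5.60, 2.60 and 3.90 units in the XEN cultures, against 123 units in ES. It was under the limit in every XEN culture, so that it was at least 4.51-fold lower than in ES. The log2 difference was -3.21 ± 0.39 (SE, limma adjusted p = 0.0105), with adjusted p from 0.00211 to 0.0324 over the 11 alternatives. Fgf8, read only by probe set 97742_s_at, was also under the limit in every XEN culture. In this array's naming the suffix s marks probes shared by several transcripts. Fgf8 had 2.10, 1.50 and 2.30 units in the XEN cultures and 32.3 units in ES. There it stood barely above the limit, so that the bound is at least 1.18-fold lower. Its log2 difference of -1.78 ± 0.45 did not pass (limma adjusted p = 0.0605). It passed when the offset was the 50th percentile (0.0386), when dim values were set to the limit (0.0213), when no probe set was filtered out (0.0126) and when the variance trend was left off (0.0205).

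Fgf3, the ligand known from parietal endoderm, was the member whose XEN cultures differed most from one another on the log2 scale. It had 102, 4.00 and 49.8 units in the XEN cultures, against 3.50 units in ES. All 3 XEN values were above the ES value, but those of IM8A1-II and ES were both under the limit and cannot be ordered. The XEN mean was 52.0 ± 49.1 units (SD, n = 3), and the log2 difference of 1.72 ± 1.08 did not pass (limma adjusted p = 0.341, and 0.0601 to 0.578 over the 11 alternatives). Fgf5, the epiblast ligand, had 18.7, 4.10 and 1.80 units in the XEN cultures and 11.0 in ES. All 4 values were under the limit and the groups overlapped, so it was not tested (log2 difference -0.31 without a filter, adjusted p = 0.770).

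Fgfr1, the main FGF receptor of the epiblast and also one of the receptors of the primitive endoderm, had 19.3, 26.8 and 8.60 units in the XEN cultures, against 206 units in ES. Each XEN value was under the limit, though that of IM8A1-II only just, and ES was bright. Fgfr1 was at least 7.53-fold lower in XEN, with a log2 difference of -2.96 ± 0.45 (SE, limma adjusted p = 0.0182, and 0.00211 to 0.0473 over the 11 alternatives). Its only probe set carries the suffix f, which in this array's naming marks probes shared by a sequence family, so transcripts of related genes could not be told apart from Fgfr1.

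Fgfr4, a receptor with a preference for FGF19-type ligands (Fgf15 in the mouse), had 40.1, 34.7 and 40.1 units in the XEN cultures, against 3.50 units in ES. The XEN values were close together and not far above the limit, so that Fgfr4 was at least 1.40-fold higher in XEN. The log2 difference was 1.80 ± 0.34 (SE, limma adjusted p = 0.0310). The call was lost if IM8A1-I (adjusted p = 0.0941) or IM8A1-II (0.0745) was left out, if the IM8A1 arrays were averaged to 1 (0.0565) and if dim values were set to the limit (0.126). The difference stayed positive in all of these.

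The probe sets of Fgfr2, a receptor of primitive endoderm and trophoblast, disagreed. Probe set 93091_s_at had 68.8, 78.1 and 55.6 units in the XEN cultures, against 16.3 units in ES. It rose by 1.53 ± 0.32 in log2 (SE, limma adjusted p = 0.0402), at least 2.45-fold. Probe set 93090_at had 105, 110 and 52.3 units in the XEN cultures, against 206 units in ES. All 3 XEN cultures were below ES here, by 2.44-fold for the geometric mean, but the log2 difference of -1.18 ± 0.44 did not pass (adjusted p = 0.146). The third probe set, 162171_f_at, was under the limit on all arrays, at 5.70, 5.70 and 8.60 units in XEN and 8.10 in ES. Fgfr2 transcripts are spliced to alternative forms (IIIb and IIIc) that bind different ligands, and the annotation used here does not say which form each probe set reads. The suffix s marks probes shared by several transcripts. The call for 93091_s_at was lost if IM8A1-I (adjusted p = 0.106) or IM8A1-II (0.102) was left out, and if the IM8A1 arrays were averaged (0.0718). It was also lost if dim values were set to the limit (0.0911), if no probe set was filtered out (0.0771) or if the offset was the 50th percentile (0.0540). A direction for Fgfr2 as a gene was therefore not set.

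Fgfr3, the remaining receptor, had 67.9, 89.6 and 68.7 units in the XEN cultures by probe set 162253_i_at, against 74.3 units in ES. The ES value lay inside the XEN range and the log2 difference was 0.01 ± 0.30 (SE, limma adjusted p = 0.987), with its sign depending on the scaling. Its other probe set, 160919_r_at, was under the limit on all arrays (7.60, 21.2 and 8.80 units in XEN, 11.9 in ES).

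**Figure D2:**
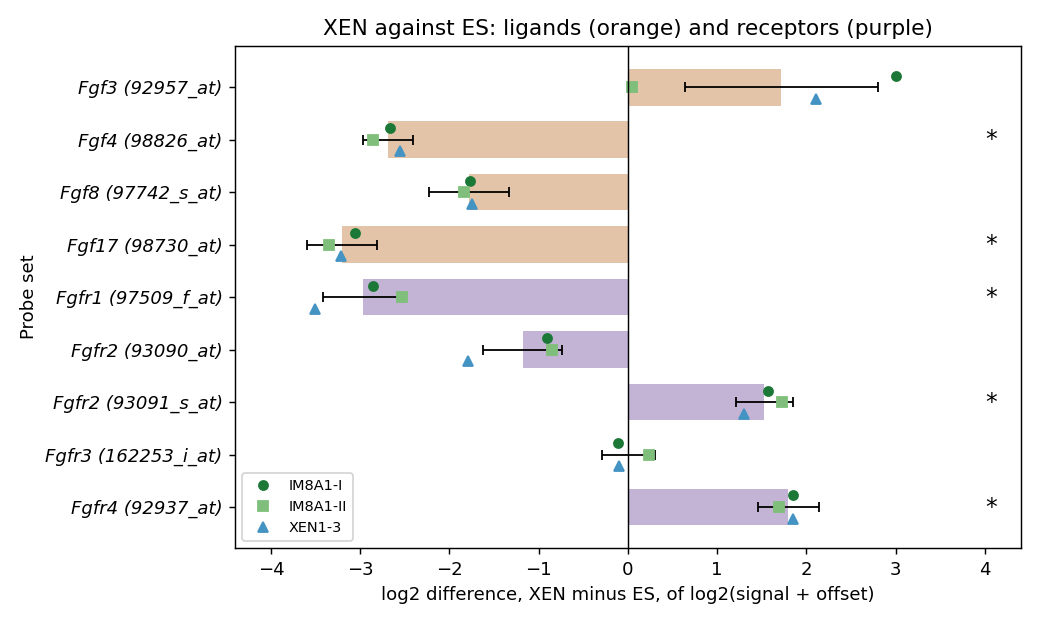
log2 difference of XEN minus ES for the 9 tested probe sets, on the log2(signal + offset) scale; bars are the fitted means, whiskers the standard error, points the 3 XEN cultures each set against the same ES array, and stars an adjusted p under 0.05. Fgf4, Fgf8, Fgf17 and Fgfr1 lie below 0 in all 3 cultures, the 2 Fgfr2 probe sets point in opposite directions, and Fgf3 spans from 0.05 in IM8A1-II to 3.01 in IM8A1-I.

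By their medians, the ligands lay further below ES than the receptors. With the brightest tested probe set standing for each gene, the median log2 difference was -2.23 over the 4 tested ligands (-1.78 with all 5) and -0.58 over the 4 receptors, against 0.05 over all 8582 tested probe sets. Entry to these medians depended on the filter. Fgf8, Fgf17 and Fgfr1 reached the limit only in ES, and Fgf3 and Fgfr4 only in XEN. The ligand median was -2.21, -2.34 and -2.14 in the XEN cultures, and the receptor median was -0.51, -0.30 and -0.94, all against the same ES array. The receptor median rests on the choice for Fgfr2, and was 0.04 with the mean of all probe sets of each gene. Over all 12 probe sets, 3 ligand and 2 receptor probe sets had every XEN array below ES. Every XEN array lay above ES for 1 ligand and 2 receptor probe sets, and 4 overlapped. That 1 ligand is Fgf3, whose IM8A1-II and ES values were both under the limit and cannot be ordered. Of the 4 that overlapped, only Fgfr3 162253_i_at reached the limit on any array. Over all non-control probe sets on the array, 31.0% had every XEN array below ES and 37.0% every XEN array above. These counts and medians are descriptions of few genes and carry no test.

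Within XEN, IM8A1-II was set against IM8A1-I (the same line, in RPMI 1640 on plastic and in EMFI-CM on gelatin). XEN1-3 was also set against IM8A1-I (different lines, strains and passages in the same condition). Each pair is 1 array against 1 array, so no test was possible, and both pairs share the IM8A1-I array. Fgf3 was the 1 of 9 tested FGF probe sets that differed by at least 2-fold between the IM8A1 cultures, compared with 5.98% of all tested probe sets. At 4.00 units in IM8A1-II it was under the limit, at least 3.74-fold lower than the 102 units in IM8A1-I. The log2 difference was -2.96, and -1.90 when dim values were set to the limit. Since the IM8A1-II value is not above background, its size depended on the treatment of dim values and ran from -4.16 to -1.50 over the alternatives.

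The other tested FGF probe sets differed by less than 2-fold between the IM8A1 cultures. Fgf4 differed by -0.19 in log2, Fgfr4 by -0.16 and Fgfr3 by 0.35. The Fgfr2 probe sets differed by 0.06 (93090_at) and 0.16 (93091_s_at). Fgf8, Fgf17 and Fgfr1 were under the limit in every XEN culture and are not ordered among them. Between XEN1-3 and IM8A1-I, 0 of 9 tested FGF probe sets differed by at least 2-fold, against 9.11% of all tested probe sets. The log2 differences were -0.90 for Fgf3, -0.88 for Fgfr2 by 93090_at and 0.11 for Fgf4, while Fgfr4 had the same 40.1 units in both lines.

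**Figure D3:**
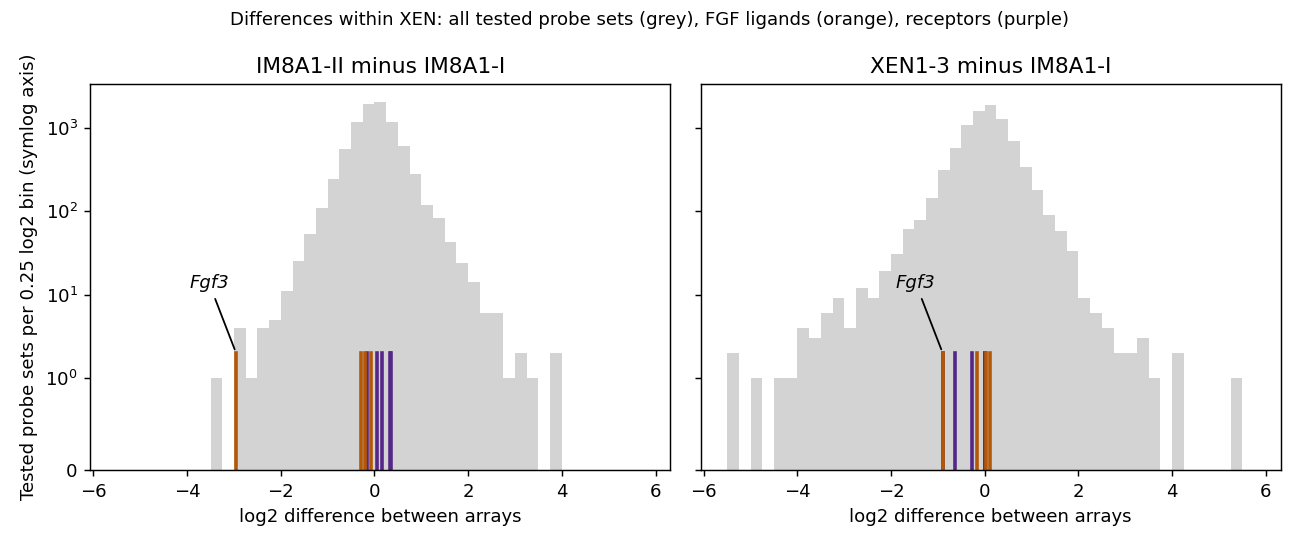
Distribution of log2 differences between single XEN arrays over 8582 tested probe sets (grey, counts on a symlog axis), with FGF ligands as orange and receptors as purple lines. Fgf3 lies at -2.96 for IM8A1-II minus IM8A1-I, where the IM8A1-II value is under the background limit, and at -0.90 for XEN1-3 minus IM8A1-I.

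The other genes of the pathway were read from lists chosen for their roles, with 1 probe set for each gene. Among all tested genes 5.23% were called lower and 5.73% higher in XEN. Of 17 other genes of the FGF family, 12 were on the array and 10 of these were under the limit on all 4 arrays, among them Fgf1, Fgf2, Fgf7, Fgf9 and Fgf10. Of the 2 tested, 0 were called (1 lower at an unadjusted p under 0.05 in limma). Fgf15, the next protein-coding gene after Fgf4 on chromosome 7, which encodes an ileal hormone in the adult, had 5.30, 4.30 and 4.60 units in the XEN cultures, against 38.1 units in ES. Every XEN value was under the limit, but its log2 difference of -1.67 ± 0.41 did not pass (limma adjusted p = 0.0590, and 0.00647 to 0.133 over the alternatives). Fgf11, an intracellular FGF homologue, had 37.2, 65.7 and 42.0 units in the XEN cultures and 72.2 in ES (adjusted p = 0.395). Its other probe set ran the other way, with 48.4, 57.9 and 44.0 units in the XEN cultures and 39.9 in ES (log2 difference 0.26, adjusted p = 0.615).

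Among co-receptors and genes of heparan sulfate, which FGFs need to bind their receptors, 15 of 17 on the array were tested, of which 1 rose, 2 fell and 12 were not called. Hs3st1, a sulfotransferase that modifies heparan sulfate, had 1547, 965 and 1206 units in the XEN cultures, against 0.900 units in ES (log2 difference 6.75 ± 0.34, limma adjusted p = 0.00175, at least 44.6-fold higher). Gpc1, the cell surface heparan sulfate proteoglycan glypican 1, had 27.8, 42.6 and 35.5 units in the XEN cultures and 163 in ES. It fell by 1.94 in log2 (adjusted p = 0.0234), and was not called without IM8A1-I (0.0610) or when dim values were set to the limit (0.0566). Fgfbp1, a secreted carrier that releases FGFs from the matrix, had 2.60, 1.60 and 3.40 units in the XEN cultures and 38.7 in ES. It fell by 1.92 in log2 (adjusted p = 0.0492), at least 1.42-fold, and was not called without IM8A1-I (0.113) or IM8A1-II (0.105), when the IM8A1 arrays were averaged (0.0795) or when the offset was the 5th percentile (0.108).

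Of 17 tested transducers between the receptors and MAP kinase, 0 rose, 1 fell and 16 were not called. The gene that fell was Gab1, an adaptor that links receptor tyrosine kinases to phosphatidylinositol 3-kinase and SHP2. It had 193, 170.0 and 96.4 units in the XEN cultures, against 814 units in ES, a log2 difference of -2.39 ± 0.42 (SE, limma adjusted p = 0.0265). Its second probe set was lower too (66.1 ± 16.4 units in XEN, SD, n = 3, and 190 in ES) without passing (adjusted p = 0.0581). The call for the brighter probe set was lost without IM8A1-II (0.0574) and when dim values were set to the limit (0.101). A dimmer probe set of Crkl, another adaptor, passed in the other direction, with 40.3, 33.1 and 26.2 units in the XEN cultures and 3.10 in ES (log2 difference 1.67, adjusted p = 0.0488). The XEN1-3 and ES values of that probe set were under the limit. The brighter Crkl probe set, which stands for the gene in the count, did not pass (adjusted p = 0.639).

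Of 12 tested targets and feedback inhibitors of FGF signalling, 0 were called by limma in either direction, and before adjustment 0 were higher and 1 was lower at p under 0.05. The 1 was Dusp1, a phosphatase that inactivates MAP kinases and an immediate early gene. It had 360, 178 and 54.0 units in the XEN cultures, against 843 units in ES (adjusted p = 0.149, and 0.0453 without XEN1-3). The MAP kinase inhibitor Spred2 had 143, 137 and 135 units in the XEN cultures, against 215 in ES (adjusted p = 0.190). The median log2 difference of the 12 targets and inhibitors was 0.01. It was -1.10 for the 2 other FGF genes (Fgf15 and Fgf11), 0.50 for the heparan sulfate list and 0.33 for the transducers. A p that misses the threshold with 1 ES array does not show that these genes were alike in the 2 cell types.

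**Figure D4:**
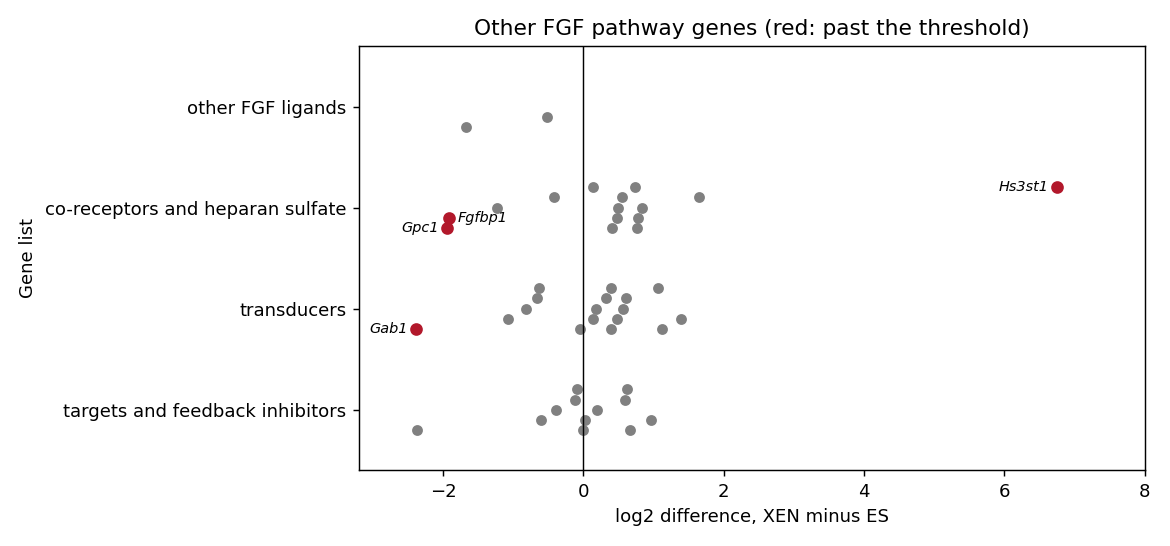
log2 difference of XEN minus ES for the tested genes of 4 FGF pathway lists, 1 point per gene, with genes past the threshold in red and named. The targets and feedback inhibitors hold no red point, and Hs3st1 stands far to the right at 6.75.

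The genes with the profile most like that of each FGF probe set were named by the smallest distance between log2 profiles centred over the 4 arrays. Fgf4 was nearest to both probe sets of Mtf2, a Polycomb-associated gene, at distances of 0.10 and 0.12, and to Crabp1 (0.13). Fgf17 was nearest to Igfbp3 (0.11), to Nodal (0.12), a TGF-beta family ligand of the early embryo, and to Ephx2 (0.13). For Fgf8 these were Trim13 (0.08), Hnrnpl (0.09) and Prcc (0.10). For Fgf3 no profile was as close, with Cck at 0.86, Ace at 0.97 and Trabd at 1.06. Fgfr1 was nearest to Elavl2 (0.30), Tm7sf3 (0.30) and Sema3e (0.32), and Fgfr4 to Slc7a6 (0.07), Fez2 (0.08) and Zhx1 (0.08). For Fgfr2 the nearest were Noct (0.08), Nefl (0.16) and H2az2 (0.17) by 93090_at, and Tpsb2 (0.09), Kcnn4 (0.10) and Mapkapk2 (0.11) by 93091_s_at. With 4 arrays these distances mainly follow the step between XEN and ES, and they describe likeness only. For Fgf8, Fgf17 and Fgfr1, whose XEN values were all under the limit, they also rest on values not distinguishable from background. The added offset shrinks the step of such dim genes.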

How the data were processed

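The 4 arrays (3 XEN cultures, 1 ES culture) were grouped by the labels. The file deposited by the authors holds linear intensity values for 12488 probe sets. What software produced them is not stated in the labels or file headers. Their 2% trimmed means (150.09 on each array) show that the authors had scaled the deposited arrays to a common level. Per the file headers, the run records (kind other, no expression values) give chip lots and fluidics messages.

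The trimmed means were made equal, 10.5 units (the 25th percentile) added and the log2 taken. Testing required 1 array or more at the 40th percentile. The comparison used limma 3.58.1 under R 4.3.3 (lmFit, then eBayes with trend; residual degrees of freedom 2, prior 3.76), two-sided, with Benjamini-Hochberg adjustment over 8582 probe sets and a threshold of 0.05. The fit was tested on simulated data in which all arrays were independent and ES varied as XEN did. That simulation therefore could not test these 2 assumptions. If all arrays of a group were under the limit, the fold is a bound: the geometric mean of the other group over the limit. Of 10833 probe sets with 1 symbol, 10817 were matched by gene ID to RefSeq (GRCm38.p6), with 0 symbols changed. Precision is limited by the number of arrays. All 12 FGF probe sets were named, and from each list the genes called (up to 6 each way) or, with none, the 2 with the smallest p. The 3 nearest profiles were named for FGF probe sets spanning at least 1 in log2. Genes and lists were chosen with earlier results of these data known. Alternatives changed the scaling, offset, dim values, filter, variance trend, probe set choice and cultures used. Figures were drawn with matplotlib 3.10.9.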

Additional observations from a re-analysis of the deposited data

How the results depend on the processing

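Fgf4, Fgf17 and Fgfr1 stayed lower in XEN and past the threshold under all 11 alternatives run on single probe sets, where 2 or 3 ligand probe sets and 1 receptor probe set were called lower. The count of receptor probe sets called higher, 2 in the fit reported, was 1 when the offset was the 50th percentile and 1 when no probe set was filtered out. It was 0 when dim values were set to the limit, 0 when the IM8A1 arrays were averaged, and 0 to 2 when 1 XEN culture was left out (0 without IM8A1-I and 0 without IM8A1-II). Over all probe sets, 240 were called higher when dim values were set to the limit, against 479, and leaving out 1 XEN culture gave 185 to 778 higher and 181 to 710 lower. The ligand median of -2.23 became -2.97 and -1.18 when the offset was the 5th and the 50th percentile, -1.21 when dim values were set to the limit and -1.78 when no probe set was filtered out. The receptor median of -0.58 became 0.039 with the mean of all probe sets of a gene. The Fgfr3 difference of 0.01 turned to -0.085 under median scaling, -0.058 under quantile normalization and -0.018 with the IM8A1 arrays averaged, ran from -0.11 to 0.070 with 1 XEN culture left out, and passed under none of these. The causes of these changes were not tested. No paired analysis was possible because there was 1 ES array and the replicate numbers pair no samples. Signals under 27.3 units, which include every XEN value of Fgf5, Fgf8, Fgf17 and Fgfr1, cannot be ordered.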
